A study of Mus musculus and Homo sapiens with 32 samples.

Results

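The Zfp genes are mouse genes whose symbol is Zfp followed by a number, a naming series for proteins that carry zinc fingers. Members were taken by that symbol in the authors' MeTPeak and exomePeak2 files, with Zfp42 left out, and 312 of the 11199 genes in these 3 files matched. Of the 312, 271 had 600 of the 33473 regions of the exomePeak2 table, 253 had a peak in the wild-type MeTPeak list and 154 had one in the Mettl3 KO list. The rule uses no measured value.

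Bulk m6A-CT places the RNA mark N6-methyladenosine (m6A) by letting an anti-m6A antibody direct a transposase to RNA paired with cDNA in nuclei, and an input library is tagmented without antibody. The genotype groups were C57BL/6 mouse embryonic stem cells, wild-type or labelled as knockout of Mettl3 (KO), the gene of the catalytic subunit of the m6A writer, each with m6A-CT (MilliporeSigma antibody) and input. The cell type groups were the mouse embryonic stem cell line E14 with 100K, 25K or 5K nuclei (K is 1000), expanded potential stem cells (EPSC, whose cell line is given as E14) at 100K and CF1 mouse embryonic fibroblasts (MEF) at 100K, all with a Synaptic Systems antibody and an input. Each group has 2 libraries, the files hold 1 value or list per condition, and no error between replicates can be given: every error below covers counting of reads alone, and reads are not independent molecules. Whether the KO cells are 1 clone, and whether the libraries of a group came from separate cultures, is not given in the labels.

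Most proteins of this series carry repeated C2H2 zinc fingers, short folds held by a zinc ion that each read a few bases of DNA, and their coding sequence commonly lies in a single long last exon. Many of the mouse genes also encode a KRAB domain, which recruits the corepressor TRIM28 (KAP1) and the methyltransferase SETDB1, and such proteins silence retroelements and guard imprinted genes in embryonic stem cells. KRAB zinc finger genes have multiplied by local duplication and sit in clusters of similar copies. A few members are of another kind, such as the CCCH fingers of the Zfp36 family, which bind AU-rich messenger RNA and speed its decay.

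The genotype table rests on 39310394 wild-type m6A-CT reads, 45090626 wild-type input reads, 37532658 KO m6A-CT reads and 51031598 KO input reads. Lars2 and Rn45s took 36.5%, 76.4%, 54.5% and 81.0% of these reads, in the same order. Leaving them out lowers every m6A-CT over input ratio by a constant factor and adds 0.17 (log2) to every change of that ratio in the KO. The 1 listed Mettl3 region had 1.71 RPM of input in wild-type and 2.47 RPM in KO, and since the removed part of the gene is not given, it checks nothing. Of 6 stem cell markers, 5, 4, 5, 4 and 2 had a MACS2 peak in E14 at 100K, 25K and 5K nuclei, EPSC and MEF. Of 6 fibroblast markers, 3 had a position in the files, and these had a peak in MEF and none in the other lists.

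In wild-type cells the m6A-CT signal of Zfp genes stood further above input than that of listed genes at the median. Each gene was represented by its region with the most reads. Over the 271 genes, median RPM (reads scaled to the size of the library) of m6A-CT was 14.5 in wild-type and 6.53 in KO, and of input 2.04 and 1.59. Over all 10268 listed genes these medians were 4.66 and 3.17 for m6A-CT and 1.55 and 1.49 for input. The excess of Zfp genes was thus wider in the m6A-CT columns than in the input columns.

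The median ratio of m6A-CT over input was 6.96 in wild-type for Zfp genes and 3.70 for all listed genes, and 3.08 and 2.01 in KO. A ratio of at least 4 was reached in wild-type by 213 of 271 Zfp genes (78.6%), against 46.6% of all listed genes. In KO it was reached by 92 Zfp genes (33.9%), against 18.1%. Without the reads of Lars2 and Rn45s the medians were 2.58 and 1.37 in wild-type and 1.28 and 0.836 in KO, so Zfp genes stayed above the other genes while the level itself fell. On that scale 70 Zfp genes (25.8%) reached 4 in wild-type, against 14.7% of all.

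Zfp regions were long. The region with the most reads covered a median of 2900 exonic bp in Zfp genes and 1050 in all, and over every region the medians were 556.5 and 150 bp. Of the 600 Zfp regions 96% were a single block, against 98.1% of all regions. Length and ratio moved together: among other genes the median wild-type ratio was 5.51 for 3164 regions of at least 2000 bp and 2.75 for 6833 shorter ones. Zfp genes lay above them in both classes, at 7.59 for 191 long regions and 4.27 for 80 short ones. How much of the high ratio of Zfp genes goes with length was not tested further. The table compares the genotypes over 1 region in 142 of the 271 genes and over more in the rest.

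Nearly every Zfp region had a lower m6A-CT over input ratio in KO. In the authors' deposited table, 587 of the 600 Zfp regions fell at FDR 0.05 (97.8%), against 88.8% of all regions, and 12 rose (2%), against 11%. That table lists almost only regions past FDR 0.05, so these shares speak of direction among selected regions. With 1 region a gene, 263 of 271 Zfp genes fell (97.0%), against 87.1% of all genes, and 8 rose. The median log2 change in the authors' deposited table was -1.44 for Zfp genes and -1.33 for all genes. Computed from RPM alone it was -0.98 and -0.84, and without Lars2 and Rn45s it was -0.81 and -0.68. The change in the authors' deposited table minus that from RPM had a median of -0.48 over the 271 genes (5th to 95th percentile -0.59 to -0.27), and the cause was not tested. The Zfp ratio was below its wild-type value in 262 of 271 genes (96.7%), against 84.3% of all genes, and without Lars2 and Rn45s in 258 (95.2%), against 79.6%.

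Part of the enrichment over input remained in KO on the RPM scale: the ratio was at least 2 in 195 of 271 genes (72.0%), against 50.2% of all genes. Without Lars2 and Rn45s, 21 Zfp genes (7.75%) reached 4 in KO, against 4.36% of all. Across the 271 genes the middle of the changes in the authors' deposited table, from the first to the last quartile, ran from -1.87 to -1.13.

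**Figure D1:**
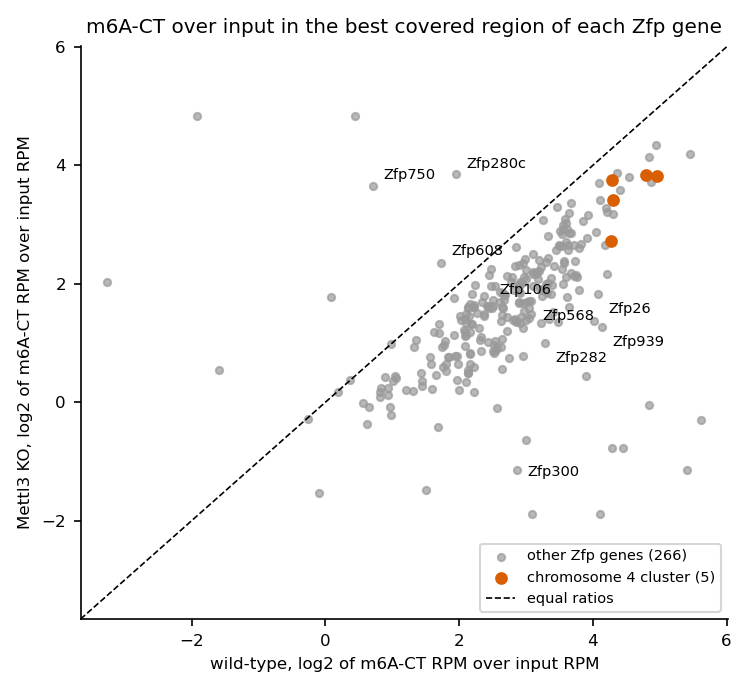
Each point is the region with the most reads of 1 Zfp gene: the horizontal axis is log2 of m6A-CT RPM over input RPM in wild-type, the vertical axis the same in Mettl3 KO, and the dashed line marks equal ratios (0.5 reads were added to each column). The ratio was lower in KO in 262 of 271 genes, and the 5 genes of the chromosome 4 cluster (orange) lie at the upper right.

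Among genes with at least 50 reads, Zfp300 had the lowest change, but on little data: 1.04 RPM of m6A-CT over 0.133 of input in wild-type and 0.0266 over 0.0784 in KO, 52 reads in all. The authors' deposited table gives -4.85 for it (FDR 0.0236). The counting SE of its change from RPM was 1.49, which is not an error of the deposited value. Zfp248 (-3.28, 54 reads), Zfp653 (-2.70, 53 reads) and Zfp934 (-2.69, 61 reads) also fell in the authors' deposited table on few reads.

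Zfp282 had the lowest change among genes with over 1000 reads named by the rule. Its region at mm9 chr6:47854563-47858483 had 17.5 RPM of m6A-CT over 1.77 of input in wild-type and 8.93 over 4.47 in KO, so the ratio went from 9.84 to 2.00. It fell by 2.82 in the authors' deposited table (FDR 1.14e-38, counting SE of its change from RPM 0.21). Both columns of KO moved towards each other, since input RPM was 2.52-fold that of wild-type (95% counting interval 1.95 to 3.23).

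Zfp26 carried a deeper measurement of the same kind. At chr9:20232762-20243086 its m6A-CT RPM went from 169 in wild-type to 39.5 in KO, while input was 10.0 and 11.1. It fell by 2.66 in the authors' deposited table (FDR 7.83e-153, counting SE of its change from RPM 0.10). Its highest MeTPeak fold went from 50.2 to 5.25. On the RPM scale input was alike in both genotypes within counting error (KO over wild-type 1.11, 95% counting interval 0.98 to 1.26). Without Lars2 and Rn45s it was 1.38-fold in KO.

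Zfp939 and Zfp119b fell by 3.41 and 3.05 in the authors' deposited table, on 234 and 164 reads, and Zfp251 by 2.68 on 793 reads. For Zfp251, m6A-CT was 14.0 RPM in wild-type and 2.40 in KO over inputs of 1.80 and 1.39.

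The 12 regions that rose in the authors' deposited table lie in 10 genes, and 5 of them hold under 50 reads. Zfp608, a zinc finger gene that takes part in lymphocyte development, has the deepest of them and of all Zfp regions, a 400-bp stretch at chr18:55054878-55055277 with 83546 reads. It had 1035 RPM of m6A-CT over 311 of input in wild-type and 607 over 119 in KO, so all columns were high and the ratio was 3.33 in wild-type and 5.08 in KO. The authors' deposited table gives it 0.12 (FDR 4.97e-05), and the RPM scale 0.61 (counting SE 0.03), or 0.78 without Lars2 and Rn45s. No MeTPeak list held a peak in it.

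Zfp280c rose by 1.60 in the authors' deposited table (FDR 0.0153, counting SE of its change from RPM 0.52). It had 2.59 RPM of m6A-CT over 0.665 of input in wild-type and 3.52 over 0.235 in KO. Zfp750, a gene of skin differentiation, rose by 2.61 there on 113 reads and with 3 KO input reads. Zfp384 rose by 1.65 and Zfp277 by 1.23 in the same authors' deposited table, on 137 and 173 reads. In these 4 genes the KO input was below the wild-type input, from 0.0828-fold in Zfp750 to 0.427-fold in Zfp384.

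Zfp106, whose protein binds RNA and is needed by motor neurons, had the most regions, 20 along chr2:120332556-120389595. All 20 fell in the authors' deposited table, by a narrow range of log2 values from -1.32 to -0.43. On the RPM scale 19 of the 20 were below 0, and without Lars2 and Rn45s only 14, so this gene is close to no change there. Its wild-type ratio ran from 2.75 to 5.43 and its KO ratio from 1.57 to 4.55. The best covered region had 381 RPM of m6A-CT over 70.2 of input in wild-type and 192 over 43.4 in KO. That region fell by 0.77 in the authors' deposited table (counting SE of its change from RPM 0.05).

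Zfp568, Zfp142, Zfp318, Zfp462, Zfp207 and Zfp638 followed with 9 regions each. The weakest falls among genes that the rule for names gave were those of Zfp936 (-0.47), Zfp36l1 (-0.53) and Zfp260 (-0.60) in the authors' deposited table. Without Lars2 and Rn45s, RPM gave 0.16 for Zfp36l1, which turned, -0.01 for Zfp260 and -0.0030 for Zfp936, so the latter pair was at no change there.

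The imprint and retroelement repressors are KRAB zinc finger genes with known targets. All 7 with a region fell in the authors' deposited table, at a median of -1.44, and on both RPM scales as well. All 24 regions of these genes fell there too. As 87.1% of all genes and 97.0% of Zfp genes fell in that table, with medians of -1.33 and -1.44, such a count is near the background, here and for the lists that follow.

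Zfp57, which keeps DNA methylation at imprinted control regions, had 162 RPM of m6A-CT over 31.3 of input in wild-type and 44.1 over 16.1 in KO. Both KO columns were lower, m6A-CT more so. Zfp57 fell by 1.44 in the authors' deposited table (FDR 8.45e-80, counting SE of its change from RPM 0.07). Its input was 0.515-fold in KO (95% counting interval 0.472 to 0.561). Zfp445, which acts beside Zfp57 at imprints, had 77.2 over 6.61 RPM in wild-type and 30.3 over 6.39 in KO. It fell by 1.77 in the authors' deposited table. Its input was alike in both genotypes on the RPM scale (0.967-fold, 0.826 to 1.13) and 1.20-fold in KO without Lars2 and Rn45s.

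Zfp568, which silences a placental promoter of Igf2, was among the 5 members with the most reads. It had 436 RPM of m6A-CT over 51.5 of input in wild-type and 101 over 31.0 in KO at chr7:30807244-30813293, and its ratio went from 8.47 to 3.26. Zfp809, which silences murine leukaemia proviruses, had 20.1 over 1.64 RPM in wild-type and 6.42 over 0.784 in KO. Its fall was smaller, 1.01 in the authors' deposited table (counting SE of its change from RPM 0.30). Zfp819, a repressor of retroelements, differed in having more input in KO, 3.35 RPM in wild-type and 5.45 in KO (1.63-fold, 1.33 to 1.98), under m6A-CT of 14.2 and 12.8 RPM. Zfp961 had 31.6 over 5.66 RPM in wild-type and 12.9 over 2.68 in KO. Zfp932 had 18 wild-type and 0 KO m6A-CT reads over 2 input reads in each genotype. Its highest MeTPeak fold went the other way, from 6 in wild-type to 9.50 in KO. In this list the highest fold was lower in KO for 6 of the 7 genes with peaks in both genotypes. Zfp708 had a wild-type MeTPeak peak (6.50-fold) and no region.

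Of the stem cell regulators all 7 with a region fell in the authors' deposited table, at a median of -1.46. Zfp281, a factor that steers the exit from naive pluripotency, had 111 RPM over 12.1 in wild-type and 30.3 over 8.05 in KO. Zfp217, whose protein has been described to bind METTL3 in embryonic stem cells, had 114 RPM over 32.5 in wild-type and 49.0 over 31.4 in KO. Its input was level on the RPM scale (0.967-fold, 0.901 to 1.04) and 1.20-fold in KO without Lars2 and Rn45s. Zfp217 fell by 1.69 in the authors' deposited table (counting SE of its change from RPM 0.07). Zfp322a, a positive regulator of pluripotency genes, fell by 0.84 in the authors' deposited table. Zfp296, a stem cell restricted gene, had more m6A-CT than input RPM in wild-type and less in KO, with ratios of 1.53 and 0.777, but without Lars2 and Rn45s it was below input in both, at 0.569 and 0.324. Zfp462, which restrains lineage genes in stem cells, had 123 RPM over 26.3 in wild-type and 66.1 over 21.2 in KO. Zfp207, a spindle assembly factor, had low ratios of 1.92 and 1.18. Zfp704 had a high one, with 119.5 RPM over 8.47 in wild-type and 43.1 over 6.72 in KO. It fell by 1.66 in the authors' deposited table (counting SE of its change from RPM 0.12).

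Of the developmental regulators, 5 of 6 fell in the authors' deposited table and Zfp608 was the exception. Zfp609, a partner of the cohesin loader, had 67.9 RPM over 9.60 in wild-type and 35.9 over 9.62 in KO. Its input RPM was thus equal, but without Lars2 and Rn45s it was 1.24-fold in KO. Zfp292, a long zinc finger gene, had 326 over 17.5 RPM in wild-type and 110 over 11.8 in KO. Its ratio went from 18.6 to 9.29, and it fell by 1.40 in the authors' deposited table. Zfp521 and Zfp536, which act in neural and mesenchymal fate, fell by 1.13 and 1.40 in the authors' deposited table. Zfp423, a regulator of fat and cerebellar development, rested on 24 reads with none in wild-type input.

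The RNA-binding and translation genes had smaller changes at the median. All 6 with a region fell in the authors' deposited table, at a median of -0.98, and 5 of the 6 were below 0 without Lars2 and Rn45s. Among the Zfp36 family, the decay factor gene Zfp36l2 had 61.7 RPM over 22.6 in wild-type and 28.8 over 23.9 in KO, and it fell by 1.65 in the authors' deposited table. Zfp36l1 had 36.0 over 18.2 RPM in wild-type and 12 over 6.07 in KO, so m6A-CT and input dropped alike and the ratio was 1.98 and 1.97. Zfp36 had ratios of 2.09 and 1.33. Zfp598, the ligase that marks collided ribosomes, had 25.1 over 10.0 RPM in wild-type and 19.8 over 10.3 in KO. Zfp638 had 41.6 over 7.41 and 20.0 over 6.66.

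**Figure D2:**
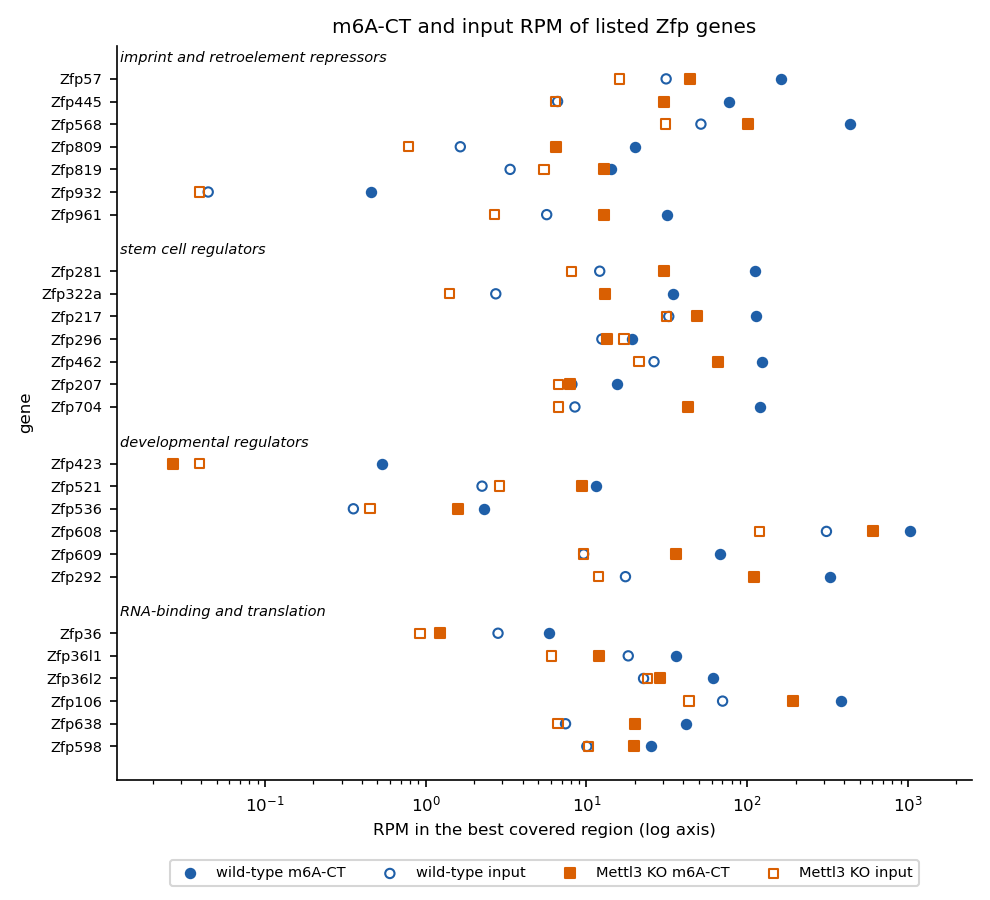
For each listed Zfp gene with a region, the horizontal log axis gives RPM in its best covered region, with filled symbols for m6A-CT, open symbols for input, circles for wild-type and squares for Mettl3 KO. Zfp608 has the highest values in all 4 columns (1035, 311, 607 and 119 RPM), and the Zfp36l1 pair of symbols is equally far apart in both genotypes. A column with no reads is not drawn.

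The genes that KRAB zinc finger proteins work with are members of other families. Of 18 such partners, among them Trim28, Setdb1, Dnmt1 and Uhrf1, 16 had a region, of which 13 fell and 3 rose in the authors' deposited table, at a median of -0.69. Of their 85 regions, 56 fell and 29 rose, in a table where 88.8% of all regions fell and 11% rose. The count of partners that fell depends on the scale. On the RPM scale Uhrf1 rose by 0.12, where the authors' deposited table gives -0.40. Chd4 (-0.04) and Setdb1 (-0.10) fell there by less than the 0.17 that leaving out Lars2 and Rn45s adds. Trim28 itself had 56.1 RPM of m6A-CT over 92.3 of input in wild-type and 55.7 over 51.0 in KO, m6A-CT being below input in wild-type, and the authors' deposited table gives it 0.32.

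Input RPM reads the transcript without antibody. Zfp input was slightly lower in KO at the median (log2 -0.19, all genes 0.00), but without Lars2 and Rn45s it was higher (0.13, all genes 0.32). Zfp genes lay below all genes on both scales. Input change also went with length on the RPM scale. In regions of at least 2000 bp its median was -0.31 for Zfp genes and -0.10 for other genes. In shorter ones it was 0.03 and 0.07. The part of length was not tested. Of 233 Zfp genes with at least 50 input reads, 72 (30.9%) had input at least 1.5-fold lower in KO, against 21.6% of all genes. At least 1.5-fold higher input was found in 16 (6.87%), against 15.7%. Without Lars2 and Rn45s these were 17.6% of Zfp and 11.1% of all genes lower, and 18.5% and 27.7% higher. In bulk samples, fewer cells with a transcript and less RNA per cell cannot be told apart.

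Zfp41 had the largest drop of input named by the rule, from 4.52 to 0.941 RPM (0.208-fold, 95% counting interval 0.153 to 0.287). Zfp971 (0.241-fold), Zfp760 (0.270-fold), Zfp442 (0.291-fold) and Zfp780b (0.295-fold) came next. Their m6A-CT signal dropped more still, so each also fell in the authors' deposited table, from -2.09 in Zfp41 to -0.81 in Zfp971. Zfp629 had the largest rise of input, from 0.909 to 3.59 RPM (3.94-fold, 2.79 to 5.47), under m6A-CT of 7.15 and 8.58 RPM. Zfp282, Zfp839 (2.20-fold), Zfp105 (2.18-fold) and Zfp777 (1.88-fold) followed.

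Peak calls, made from the same libraries, were also fewer for Zfp genes in KO. A wild-type MeTPeak peak was listed for 253 of the 312 Zfp genes (81.1%), against 52.1% of all genes of the 3 files, and a KO peak for 154 (49.4%), against 41.4%. A gene could enter these files through such a peak alone, so the shares are partly set by the listing. An exomePeak2 region was held by 271 of the 312 Zfp genes and by 10268 of all 11199 genes. Peaks in both lists were found in 149 Zfp genes, in wild-type alone in 104 and in KO alone in 5. Over all 11199 genes these counts were 3953, 1885 and 682. The 5 were Zfp143, Zfp277, Zfp326, Zfp346 and Zfp384, all with folds of at most 4.50 and chosen for mention after their values were seen. The lists themselves are of similar length, 20055 and 20482 peaks, and 777 and 699 of these lay in Zfp genes.

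In genes with peaks in both lists the highest fold was lower in KO for 134 of 149 Zfp genes (89.9%), against 76.7% of all such genes. The median highest fold of the 149 went from 13.5 to 5.60, and that of all 3953 genes from 8.20 to 5.45. In KO these medians were thus close. A highest fold of at least 10 was still more common in Zfp genes in both lists, in 43.9% of the listed Zfp genes against 30.7% of all listed genes in wild-type and in 18.8% against 10.6% in KO. Over all peaks the median folds were 4 for Zfp genes and 3.71 for all in wild-type, and 3.33 and 3.25 in KO. Lars2 and Rn45s took a larger share of the KO reads, and the part of that in these folds was not tested.

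Zfp148, a factor that binds GC-rich promoters, had the highest wild-type fold, 67.5, and 13.6 in KO. Zfp292 went from 55.7 to 16, Zfp729b from 53.0 to 11.5 and Zfp990 from 48.4 to 11.5. These MeTPeak folds exceed the RPM ratios of much the same stretches, 12.4 in wild-type for Zfp148 and 18.6 for Zfp292, so the scales cannot be set against each other. In KO the highest folds belonged to Zfp985 (31.0), Zfp980 (30.8), Zfp600 (21.3), Zfp979 (19.0) and Zfp141 (17.5). The first 4 of these lie in 1 cluster on chromosome 4, and for them the KO fold was above the wild-type fold of 21.5, 29.8, 16.5 and 16.7.

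**Figure D3:**
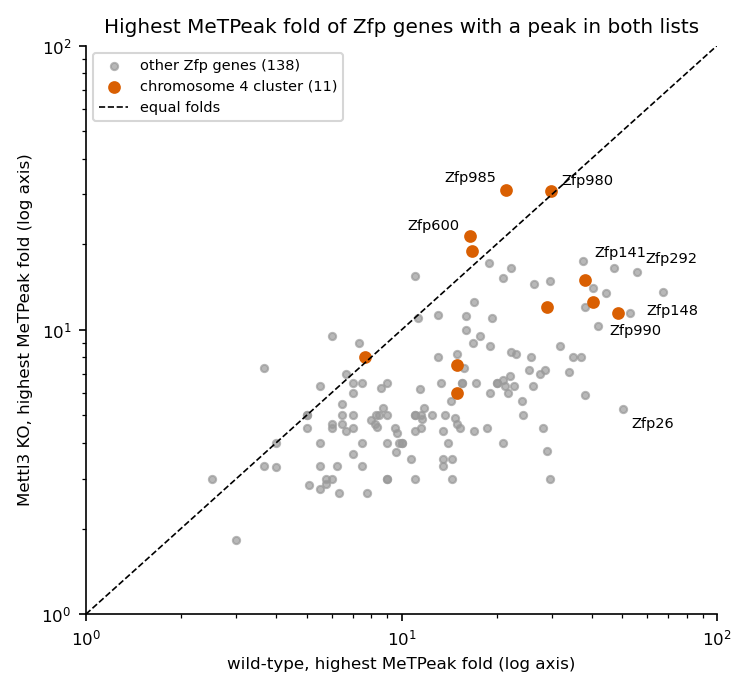
Highest MeTPeak fold in wild-type (horizontal log axis) against Mettl3 KO (vertical log axis) for the 149 Zfp genes with a peak in both lists; the dashed line marks equal folds. Of the genes, 134 lie below the line, and the chromosome 4 genes (orange) include the highest KO folds, 31.0 in Zfp985 and 30.8 in Zfp980.

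By position, 173 of the 312 genes formed 25 clusters of at least 3 genes with neighbours at most 500 kb apart, and 139 lay outside clusters. Chromosome 13 held the largest, 19 genes, chromosome 17 held 17 and 11, chromosome 7 held 8 clusters, 6 of them with 7 to 15 genes, chromosome 4 held 12 and chromosome 6 held 9. Only genes with a region or a peak have a position in the files, so the clusters can hold further genes not counted here. In the 11 clusters of at least 5 genes every gene with a region fell in the authors' deposited table, against 97.0% of all Zfp genes. Of the 14 smaller clusters, 2 hold a gene that rose there, Zfp930 and Zfp810, each on under 50 reads. In the authors' deposited table the medians of the 11 larger clusters lay between -1.72 (chromosome 6) and -1.15 (the chromosome 7 cluster from Zfp141 to Zfp819). Those of the 14 smaller clusters lay between -2.09 and -1.02, and genes outside clusters had -1.43.

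**Figure D4:**
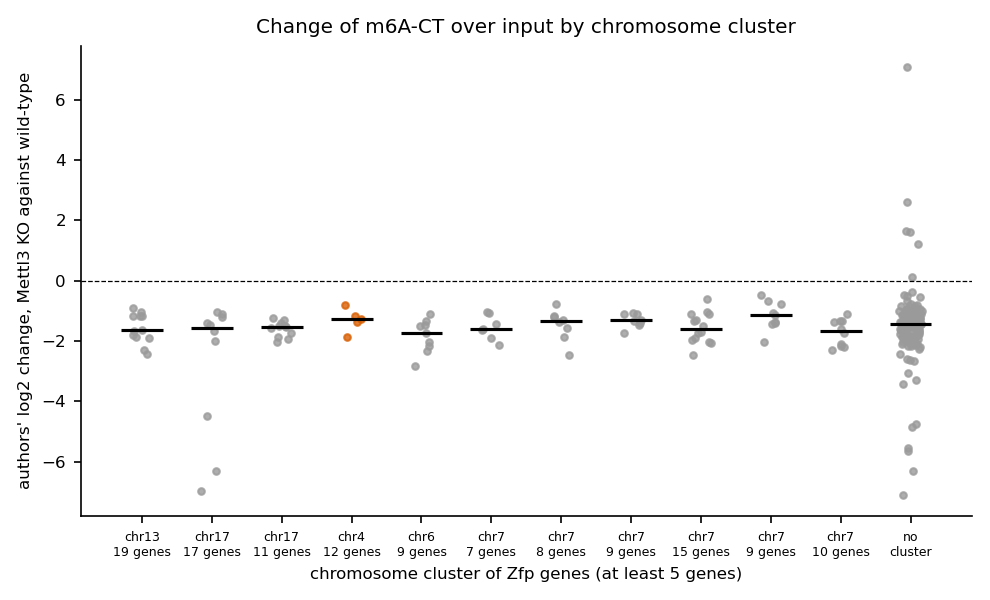
The authors' log2 change in Mettl3 KO is plotted on the vertical axis for the best covered region of each Zfp gene, by chromosome cluster of at least 5 genes and for genes outside clusters, with the median as a bar. In all 11 clusters every point is below 0, with medians from -1.72 to -1.15. The values above 0 shown here belong to genes outside clusters.

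Cluster medians of the wild-type ratio reached from 3.74 to 19.7. The median was 3.74 in the chromosome 7 cluster around Zfp646 and 4.24 in the chromosome 6 cluster of Zfp282. It was 14.2 in the chromosome 17 cluster of 17 genes and 12.5 in the chromosome 13 cluster of 19, where Zfp729b had 63.9 RPM of m6A-CT over 2.22 of input in wild-type and 25.4 over 1.43 in KO. In the former, Zfp229 had 149 RPM over 6.39 in wild-type and 30.7 over 2.19 in KO. Among the 11 clusters the highest KO medians were in the chromosome 4 cluster (13.5, 5 genes) and in the chromosome 7 cluster from Zfp141 to Zfp819 (9.85, 9 genes). There, Zfp141 had 77.4 over 4.55 RPM in wild-type and 32.6 over 2.49 in KO, and Zfp936 had 51.0 over 4.59 and 34.3 over 3.47.

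Within its listed blocks, the chromosome 4 cluster had peaks in the stem cell lists and none in MEF. It holds 12 genes in 2.08 Mb at mm9 chr4:145100662-147183897, in the order Zfp990, Zfp980, Zfp981, Zfp992, Zfp987, Zfp600, Zfp991, Zfp982, Zfp985, Zfp979, Zfp534 and Zfp984. The region is known as a mouse cluster of KRAB zinc finger genes that are close copies of each other; the KRAB domain was not checked here. Reads of such copies can be assigned to more than one gene, so the value of any 1 gene here is uncertain, and how the authors treated such reads is not given in the sources used here.

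RefSeq (GRCm38.p6) gave promoter sequences, from 250 bases before to 50 after the start, for 258 of the 312 genes and for 9 of these 12. Of the 9, 5 are shown, those with high peak folds in one of the lists. Pairwise identity of the promoter sequences over 36 pairs of the 9 ran from 57.9% to 94.4%, with a median of 76.8%. The lowest value is that of Zfp534 and Zfp981, both shown. The longest run of bases common to all 9 is in capitals. Each stretch is 80 bases, 5′ to 3′ on the strand of the gene.
Zfp534 (GRCm38.p6 chr4:147702678-147702757, minus strand): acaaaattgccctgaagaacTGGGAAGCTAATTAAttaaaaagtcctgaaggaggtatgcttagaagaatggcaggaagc
Zfp600 (GRCm38.p6 chr4:146156672-146156751, plus strand): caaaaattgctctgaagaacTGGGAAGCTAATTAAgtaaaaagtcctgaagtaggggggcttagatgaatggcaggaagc
Zfp980 (GRCm38.p6 chr4:145670536-145670615, plus strand): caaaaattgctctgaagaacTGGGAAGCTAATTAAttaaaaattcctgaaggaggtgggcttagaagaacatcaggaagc
Zfp981 (GRCm38.p6 chr4:146514736-146514815, plus strand): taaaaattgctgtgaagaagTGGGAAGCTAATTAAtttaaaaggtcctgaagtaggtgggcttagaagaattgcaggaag
Zfp985 (GRCm38.p6 chr4:147553121-147553200, plus strand): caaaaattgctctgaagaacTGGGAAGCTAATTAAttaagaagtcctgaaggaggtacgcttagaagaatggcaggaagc

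The run of 15 bases, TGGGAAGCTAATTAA, starts between 106 and 164 bases before the start site in the 9 genes. It was found as their common run, so its presence in them is by construction. Searched on either strand in the promoters of 27025 genes, 335 of them Zfp genes, it was in 12 (0.0444%). Of these, 10 are Zfp genes, the 9 above and 1 not listed in the cluster, whose position is not given here. The 9 promoters held 3 to 9 CG pairs (median 5), against a median of 15 in 326 other Zfp genes of RefSeq and 8 in all genes. These RefSeq genes include some that are not members here. A match is a description of letters, not a binding site. RefSeq places Zfp981 on the plus strand and the authors' files place it on the minus strand, so in this cluster a symbol need not name the same copy in both builds.

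In E14 at 100K nuclei and in EPSC, all 12 cluster genes had a MACS2 peak, and in MEF none had one. Of the other 300 Zfp genes, 86 (28.7%), 117 (39.0%) and 149 (49.7%) had a peak in these 3 lists. At 25K and 5K E14 nuclei the cluster had 9 and 5 genes with a peak, and the others 41 (13.7%) and 46 (15.3%). When each list was shortened to its 3923 peaks of best q, the length of the shortest, the cluster counts were 11 in E14 at 100K, 9 at 25K, 4 at 5K, 10 in EPSC and 0 in MEF. MEF has the longest full list, 38205 peaks, against 8052 in E14 at 100K and 12183 in EPSC. Only 5 of the 12 cluster genes had an exomePeak2 region, and the others were listed through MeTPeak peaks alone. Overlap was counted only with blocks listed from the C57BL/6 stem cells. This favoured peaks in the stem cell lists, and a MEF peak elsewhere in a gene could not count.

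Zfp980 had the highest fold of the cluster, 59.4 in E14 at 100K, with 10.0 at 25K, 7.44 at 5K and 20.3 in EPSC. Zfp600 had 38.8, 14.2, no peak and 14.7 in the same order, and Zfp981 25.7, 20.4, 7.34 and 27.5. The lowest was Zfp987 in E14 at 100K, at 7.19, and Zfp982 in EPSC, at 5.97. Whether MEF express these genes was not analysed here, so a missing peak and a missing transcript cannot be told apart. MEF also come from another mouse line than E14.

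**Figure D5:**
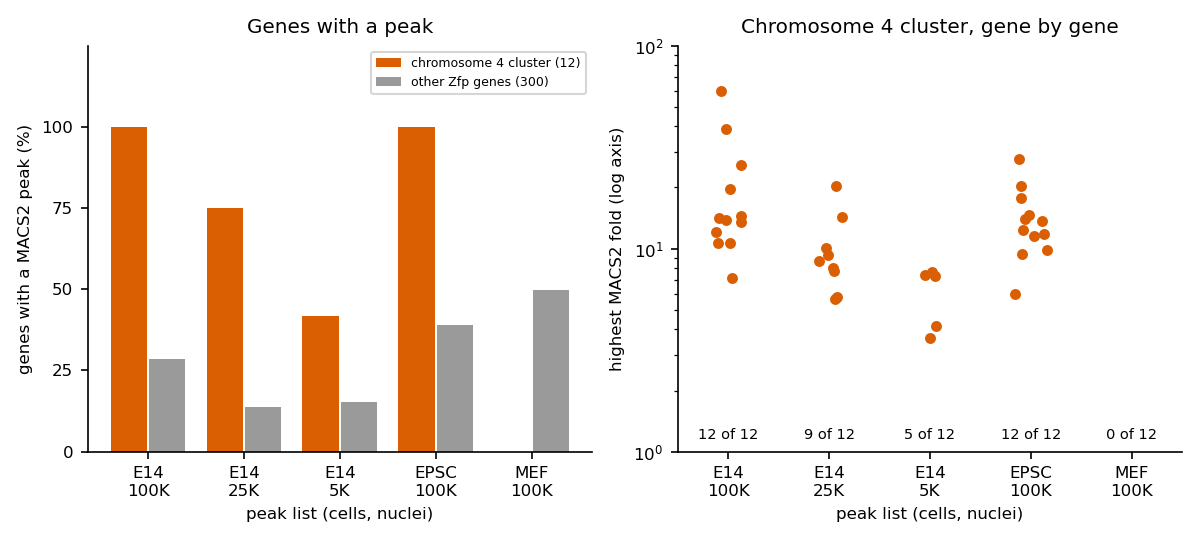
Left, percent of genes with a MACS2 peak in the 12 chromosome 4 genes (orange) and the other 300 Zfp genes (grey) in each peak list, named by cells and nuclei (K is 1000). Right, the highest MACS2 fold (log axis) of each chromosome 4 gene with a peak, which spans 7.19 to 59.4 in E14 at 100K; none of the 12 genes had a peak in MEF, against 149 of the other 300.

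In the genotype set 5 of the 12 genes had an exomePeak2 region, and these had some of the highest ratios of the family. Zfp990 had 113 RPM of m6A-CT over 5.72 of input in wild-type and 20.5 over 1.90 in KO. Zfp981 had 76.1 over 3.90 and 23.4 over 1.72, Zfp534 43.5 over 1.55 and 10.3 over 0.705, Zfp992 33.6 over 1.06 and 6.74 over 0.470, and Zfp991 26.4 over 1.35 and 8.58 over 1.29. In 4 of the 5 both m6A-CT and input were lower in KO. In Zfp991 input was level on the RPM scale (0.956-fold, 0.675 to 1.35) and 1.19-fold in KO without Lars2 and Rn45s. The Zfp991 region is also named for Znf41-ps and was assigned by its first symbol.

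The median ratio of the 5 was 19.7 in wild-type and 13.5 in KO, against 6.79 and 3.06 in the other 266 Zfp genes. Without Lars2 and Rn45s it was 7.29 and 5.62, against 2.52 and 1.28. They fell by 0.80 (Zfp981) to 1.86 (Zfp991) in the authors' deposited table, at a median of -1.25, against -1.44 in the others. Median input change was -1.16 (log2), or -0.85 without Lars2 and Rn45s, against -0.18 and 0.13 in the others. Such a drop was not particular to this cluster. On the RPM scale the medians of the 25 clusters ran from -1.71 (chromosome 2) to 0.50 (chromosome 6), with -1.20 in the chromosome 9 cluster of Zfp809. MeTPeak peaks were in both lists for 11 of the 12 chromosome 4 genes, and the highest fold was lower in KO in 6 of the 11, at medians of 21.5 and 12.5. In the other 138 Zfp genes it was lower in 128, at medians of 13.0 and 5.12. The 5 cluster genes without a lower fold (Zfp600, Zfp979, Zfp980, Zfp982 and Zfp985) had no exomePeak2 region, so their fold cannot be set beside an RPM value.

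Across the other cell types, Zfp genes had a MACS2 peak in 98 of 312 in E14 at 100K nuclei (31.4%), against 19% of all genes of the 3 files. In EPSC these were 129 (41.3%), against 27.4%, and in MEF 149 (47.8%), against 39.8%. With each list shortened to 3923 peaks, the MEF share turned, to 13 Zfp genes (4.17%) against 6.94% of all genes, while E14 at 100K had 18.3% against 9.94% and EPSC 17.0% against 10.9%. At 25K E14 nuclei 50 had a peak (16%), against 9.97%. At 5K 51 had one (16.3%), against 14.9%, which is close to the background. Of the 50 genes at 25K, 49 also had a peak at 100K, as did 37 of the 51 at 5K, and 29 had one at all 3 amounts. The share of all genes is not given here for these overlaps.

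Peaks in E14 at 100K, EPSC and MEF alike were found in 61 Zfp genes, in E14 and EPSC but not MEF in 25, and in MEF but neither of the others in 50. Of the 86 genes shared by E14 and EPSC, 29.1% thus lacked a MEF peak, against 16.7% of 1836 such genes in all. Without the 12 genes of the chromosome 4 cluster it was 13 of 74 (17.6%), close to the share of all genes. The 25 include the 12 of chromosome 4, 4 of the chromosome 7 cluster from Zfp141 to Zfp819 (Zfp936, Zfp975, Zfp976 and Zfp977), Zfp229 and Zfp608, named after their values were seen. In all 5 lists 20 genes had a peak, among them Zfp57, Zfp445 and Zfp568 of the imprint and retroelement repressors, Zfp106, Zfp148, Zfp292 and Zfp740. No list held a peak for 118. For the counts of 61, 50, 20 and 118 the share of all genes is not given here, so they describe Zfp genes alone.

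Zfp608 led every stem cell list, at 78.1-fold in E14 at 100K nuclei, 79.1 at 25K, 182 at 5K and 35.0 in EPSC, by 1 peak in each, and had no MEF peak. Zfp740 had 9.23, 22.4, 21.7, 8.23 and 9.37 over the E14 amounts from high to low, EPSC and MEF, and Zfp148 10.6, 10.2, 15.7, 7.58 and 7.75. Zfp638 reached 21.3 in EPSC, 19.3 in E14 at 100K and 11.4 in MEF.

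In MEF the highest fold was that of Zfp462, 21.7 with 15 peaks; it had 13 peaks in EPSC (8.32) and none in E14 at any amount. Zfp592 followed with 17.4 in MEF, 7.65 in E14 at 100K and 3.65 in EPSC. Zfp292 had nearly the same highest fold in E14 at 100K (17.9), EPSC (17.8) and MEF (17.4). The RNA-binding genes had peaks in 2 of the 10 listed names in E14 at 100K, where 19% of all genes had one, and in 6 in EPSC (27.4% of all genes) and in MEF (39.8%), with Zfp36l3 not in the files. Zfp106 had 4 peaks in E14, 8 in EPSC and 21 in MEF. Folds from lists of different length rank peaks within a list and show no change between cells.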

How the data were processed

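The submitters' processing notes name Trim Galore, STAR 2.7.2, MACS2 and the mouse build mm9; MeTPeak and exomePeak2 are named per the labels, with settings not given in the sources used here. The MACS2 fold, a ratio at the peak, and -log10 q are as deposited by the authors. The MeTPeak fold is the ratio of enrichment as deposited by the authors, computed in an unstated way. The authors' exomePeak2 table gives RPM for 4 pooled columns, deposited with a log2 change, p-value and FDR. All tested RPM values (up to 1000 reads) were whole reads to within 0.1 reads, which gave back the read counts. With 1 pooled column per group no model with replicates could be fitted.

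A gene was represented by its region with the most reads. Ratios and changes used 0.5 added reads, and counting SEs and 95% intervals came from the reads. A counting SE is that of the change computed from RPM, not of the authors' deposited change. A peak was assigned to a gene when it met a listed exon block by at least 1 bp, without strand. Clusters used gaps of at most 500 kb and at least 3 genes. Shared names were assigned by the first symbol. A Wald test on the reads, an alternative, was tested on simulated data. Python 3.11.15, pandas 2.3.3, scipy 1.17.1 and Biopython 1.88 were used.

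Named genes were those with extreme changes (at least 50 reads), extreme MeTPeak or MACS2 folds, most regions or reads, extreme input changes (at least 50 input reads), the extremes of each cluster of at least 5 genes, and 4 lists by known role. The members, the lists and this rule were chosen with earlier results of these data known. Zfp131, Zfp503, Zfp703, Zfp36l3 and the partner gene Cbx3 have no entry in the 3 files.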

Additional observations from a re-analysis of the deposited data

How the results depend on the processing

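No paired analysis was possible because the deposited columns and lists pool or do not separate the replicates. Of 47 alternatives, 23 stayed close to the main value, 23 moved and 1 reversed. Regions lower in KO numbered 263 with 1 region per gene, by construction, and 451 (75.2%, all regions 55.3%) by the Wald test on reads, which compares libraries and not genotypes. Regions higher numbered 2 at FDR 0.01 and 7 with at least 50 reads. The median change was -0.98 on the RPM scale, -0.81 there without Lars2 and Rn45s, -1.05 with reads summed per gene and -1.61 over every region. Dropping Lars2 and Rn45s took the median wild-type log2 ratio from 2.80 to 1.37 (2.69 with summed reads) and reversed the input change from -0.19 to 0.13. On that scale, an alternative chosen after seeing the data for these counts, 70 Zfp genes in wild-type and 21 in KO reached 4-fold, and 41 had lower and 43 higher input. A MeTPeak fold of at least 5 left 93 genes in KO. At -log10 q of at least 20, MACS2 counts were 51, 20, 16, 72 and 99 in E14 at 100K, 25K and 5K, EPSC and MEF. With as many peaks as the shortest list has, 57 Zfp genes in E14 at 100K (18.3%, all genes 9.94%), 53 in EPSC (17.0%, 10.9%) and 13 in MEF (4.17%, 6.94%) had a peak, so the MEF share went from above to below that of all genes. Without the chromosome 4 cluster, also chosen after seeing the data, 13 genes in place of 25 had a peak in E14 at 100K and EPSC and none in MEF. The planned split into KRAB and other genes, with its alternative, was not run, since no protein sequences were at hand. Depth limits genes with few reads: 13 of 271 had under 50, and 10 had a column at 0, where a fitted change is no bound (with these at their bound the median was -1.43).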
